A study of Mus musculus with 221 samples.

Results

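The control transcriptome of the early 2-cell mouse embryo was described here from all 99 single embryos of the series whose label gives the treatment as Low Fat Diet. They make up 44.8% of the embryos of the series. Each library was made with Smart-seq2, a method that copies polyadenylated RNA of a single cell or embryo into cDNA and amplifies it by PCR. The embryos carried C57BL/6N nuclear DNA and mitochondrial DNA of the Staudach (ST) strain. They came from in vitro fertilization of ST oocytes with sperm of C57BL/6N males fed a low-fat diet (LFD). Per the study's methods the sperm had been frozen and came from a few males, a different one on each date of fertilization, and the dams were superovulated. All of the groups in the series share this genotype, and the remaining embryos (55.2%), sired by males on a high-fat diet (HFD), were not compared with these in level. The labels give no sire, date, batch or embryo sex. Embryos of the same male are not independent, so every spread below is a spread between embryos and not between fathers. The p-values of the correlations below treat embryos as independent and do not account for sire or date. An early 2-cell library pools both blastomeres, and less RNA per blastomere cannot be told apart from fewer contributing blastomeres.

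At this stage most RNA in the embryo was made by the oocyte. Maternal RNAs are cleared while the genome of the embryo is switched on, a step called zygotic genome activation, which in mouse has its major wave at the 2-cell stage. Genes such as the Zscan4 and Tdpoz clusters are transcribed briefly in that wave. In female embryos the X chromosome of the father is active from this wave until it is silenced by the non-coding RNA Xist, which is transcribed from the paternal X.

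Total counts ran from 1937251 to 17246791 per embryo with a median of 5701723. Levels are given in CPM, the counts of a gene scaled to a fixed total per embryo of 1e6. Of 55291 genes in the table, an embryo had a count for 11364 to 21521 genes, with a median of 18723 and a mean of 18511 ± 1600 (SD, n = 99). A total of 7211 genes (13%) had a count in all 99 embryos and 14698 had none in any. The 7211 genes held 92.6% of the mean CPM. A further 14454 genes had a count in 1 to 9 embryos and together held 0.0347% of the mean CPM. A count of 0 allows a level of up to 0.526 CPM in an embryo of the median floor (3 counts of its total), and up to 1.55 CPM in the shallowest embryo. Reads carried no molecular identifiers, so these limits cover counting error only.

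**Figure D1:**
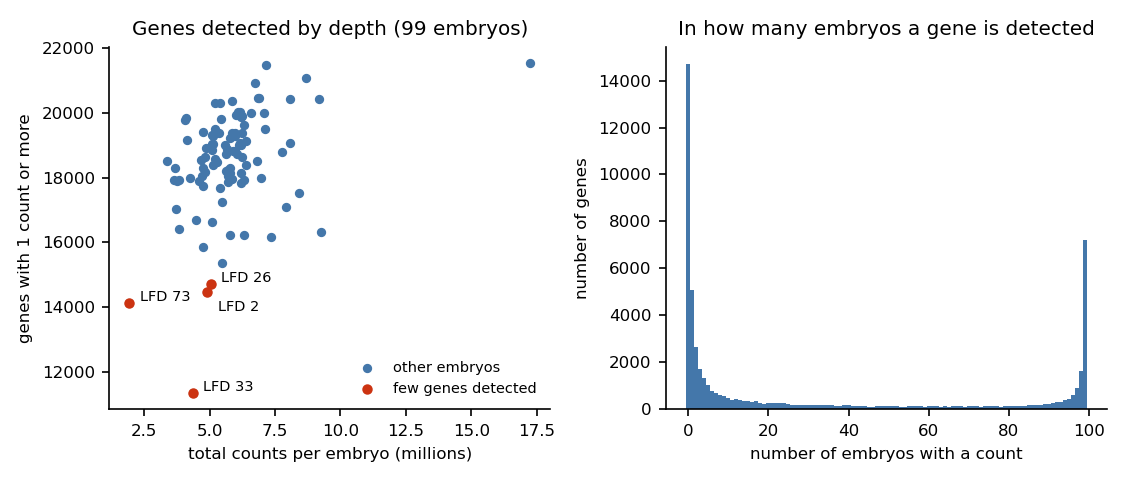
Left, genes with 1 count or more (vertical axis) against total counts on a scale of 1e6 (horizontal axis) for 99 embryos, with the 4 embryos of few genes in red; they had 11364 to 14707 genes. Right, the number of genes by the number of embryos with a count; the bars at 0 (14698 genes) and 99 (7211 genes) stand highest.

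Some libraries stood apart. LFD 33 had 11364 genes detected, LFD 73 had 14124, LFD 2 had 14455 and LFD 26 had 14707, all below the median by more than 3 scaled median absolute deviations. LFD 73 also had the lowest total. LFD 26 and LFD 73 held 12.4% and 11.5% of their counts in mitochondrial genes, against a median of 4.38% over all 99 embryos. Separately, the first principal component of the 1110 most variable genes (defined below) took 28.1% of their variance, and 6 embryos were low on it, namely LFD 13, LFD 26, LFD 33, LFD 45, LFD 73 and LFD 83, so that 3 embryos stood apart in both ways. The genes of largest weight on this component were chosen after the values were seen and serve only to describe it. Sesn2, a stress-induced sestrin, was at 30.2 to 120.7 CPM in the 6 embryos against a median of 389 CPM over all 99. At the opposite end A730082K24Rik was at 333 to 735 CPM in the same 6 embryos against a median of 137.9 CPM. The counts of variable X-linked genes and later lineage markers are therefore given again without these 6 embryos.

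The number of genes detected rose with depth. Over 99 embryos the correlation with total counts was r = 0.37 (2-sided permutation p = 0.00171, adjusted over 4 correlations 0.00454) and rho = 0.37 (permutation p = 0.00025, adjusted 0.0006). Without the 2 embryos farthest from the median total, r was 0.28 (permutation p = 0.00666). Within ranges of 10 embryo numbers, taken from the labels, r was above 0 in 8 of 10 ranges, with a median of 0.52. The order in which the series lists its samples differs from the embryo numbers and was not examined. Against the mitochondrial share of counts, r was -0.05 (permutation p = 0.603, adjusted 0.603) and rho was 0.20 (permutation p = 0.0512, adjusted 0.0512). Leaving out the 2 embryos of most extreme mitochondrial share turned r to 0.27 (permutation p = 0.00954), so the sign for that pair of measures rested on 2 embryos. Within the ranges of embryo numbers it was above 0 in 7 of 10.

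Markers of the labelled stage were found in every embryo, and some markers of other cells were counted as well. The oocyte and 2-cell markers Zp3, Gdf9, Nlrp5, Ooep, Dppa3, Zscan4d and Zfp352 each had a count in all 99 embryos. Among the 21 markers of cumulus cells, the somatic cells that surround the oocyte, 0 had a count in all embryos, against 13% of all genes. The summed level of these markers ran from 4.13 to 84.8 CPM with a median of 33.05 CPM. Most of this came from Amhr2 (mean 13.1 CPM) and Cyp19a1 (7.36 CPM), while the defining receptor gene Fshr had a count in 7 embryos and Foxl2 in 9. The 21 macrophage markers summed to 55.4 to 196.1 CPM with a median of 116.9 CPM. Mrc1 (mean 26.5 CPM) and Csf1r (21.5 CPM) were the most abundant. Of the 21, 11 had a count in at least 50 embryos, as had 31.8% of all genes in the table. A mean of at least 5 CPM was reached by 8 of the 21 and by 20.07% of all genes. C1qb, a complement gene, had a count in 89 embryos at a mean of 8.04 CPM and a highest value of 47.3 CPM, whereas C1qc and Mpeg1 had 0 counts in all 99, and Tyrobp had a count in 1 embryo. Exons of Csf1r overlap exons of Hmgxb3, a gene of 88.9 CPM on the opposite strand, so its counts are uncertain. Over all embryos together a count of 0 allows 0.00522 CPM. Of 16 sperm and spermatid mRNAs, the protamines Prm1 and Prm2 had a count in 21 and 64 embryos at means of 0.13 and 0.95 CPM, and the list's summed median of 523 CPM was nearly all Odf2 (mean 485 CPM), an outer dense fibre gene also used at centrosomes.

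Counts were concentrated in few genes. The 15 genes of highest mean CPM held 16.04%, the 100 highest held 28.9% ± 2.75 (SD, n = 99), and 625 genes made up 50% of the mean CPM. Other protein-coding genes, outside the ribosomal protein and histone classes, took 72.2% to 91.02% of an embryo's counts with a median of 84.5%. Mitochondrial mRNAs took 1.46% to 10.3% (median 3.82%), long non-coding RNAs 3.10% to 4.10% (median 3.60%), pseudogenes 1.04% to 2.15% (median 1.68%), cytosolic ribosomal protein genes 0.255% to 1.05% (median 0.636%) and histones 0.296% to 1.16% (median 0.401%). The long non-coding share thus had a narrow range across embryos and the mitochondrial share a wide one. Of 905 long non-coding genes with a mean of at least 5 CPM, 450 have exons that overlap a more abundant gene on the opposite strand. Their counts, and so the share of this class, are uncertain.

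The most abundant single feature was CT010467.1, annotated as an rRNA on chromosome 17 (39846353 to 39848201, GRCm38, plus strand). Its level ran from 858 to 155890 CPM with a median of 41097 CPM, so it took between 0.0858% and 15.6% of an embryo's counts. It was under 1% in 5 embryos, among them all 4 of few genes. Smart-seq2 primes on poly(A), and rRNA in such libraries has no fixed share, so this feature moves the CPM of every other gene. Counting the remaining genes without it left the 100 highest at 25.4%.

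Maternal genes led the nuclear mRNAs. Zbed3 (chromosome 13, 95323612 to 95337841), a component of the subcortical maternal complex that sits under the membrane of the egg, was at 5395 to 54960 CPM with a median of 33790 CPM. Spin1 (chromosome 13, 51100880 to 51152546), a reader of methylated histone H3, followed at 7344 to 28477 CPM with a median of 14915 CPM. Tcl1 (chromosome 12, 105216750 to 105222793), a co-activator of the kinase Akt, was at 3439 to 23965 CPM with a median of 9059 CPM. Zbed3 thus reached further below its median than Spin1 did. Omt2a and Omt2b, oocyte maturation genes of chromosome 9, had medians of 4231 and 4136 CPM and nearly the same range, up to 16068 and 17777 CPM in LFD 73. The oogenesin gene Oog3 (median 3292 CPM) and Mphosph6 (median 3587 CPM), a phosphoprotein of M phase, completed the nuclear coding genes among the 15. The 2 long non-coding entries, Gm1965 and C86187, had medians of 4089 and 3921 CPM, and C86187 shares exon sequence with Gm31941, a pseudogene of 869 CPM on the opposite strand.

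The other entries were mitochondrial. mt-Cytb, a subunit of respiratory complex III, had a median of 7437 CPM (range 3338 to 31988), mt-Co1 of complex IV a median of 6863 CPM, mt-Atp6 of the ATP synthase 6418 CPM, mt-Nd1 of complex I 4724 CPM, and the 16S rRNA gene mt-Rnr2 4258 CPM. The highest values of all of them were in LFD 26 or LFD 73.

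**Figure D2:**
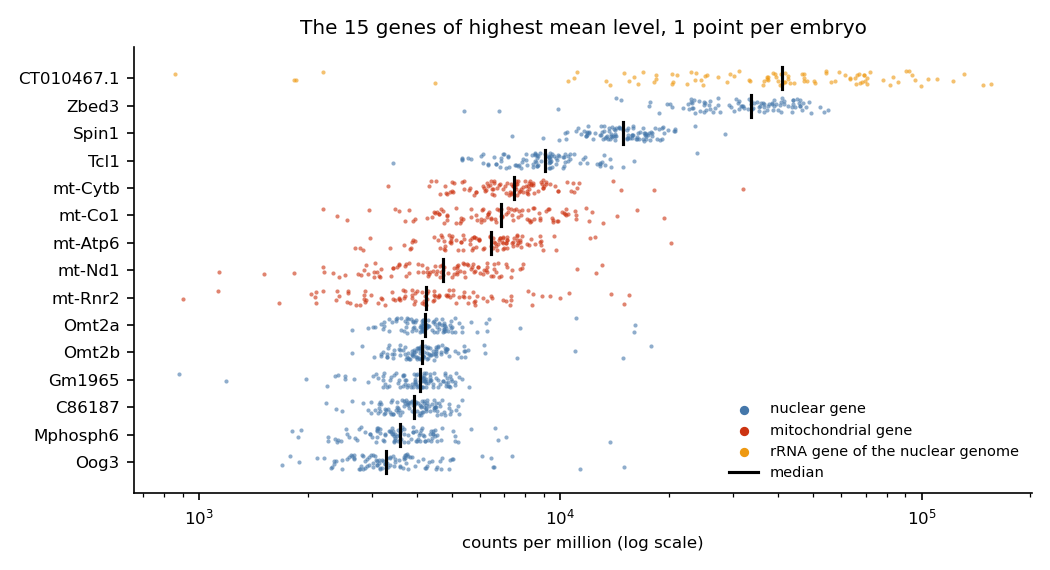
CPM on a log scale (horizontal axis) for the 15 genes of highest mean, with 1 point for each of 99 embryos and a black bar at the median. CT010467.1 spans 858 to 155890 CPM, whereas the points of Spin1 lie within 7344 to 28477 CPM.

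Divided by exon length and scaled to a total of 1e6 per embryo, the first 2 genes kept their places and the order below them changed. CT010467.1 had a mean per-length level of 64918 and Zbed3 of 38243, followed by mt-Atp6 (24039), mt-Cytb (17314), mt-Nd1 (13113) and Tcl1 (12900). The short genes mt-Ts1 (12516), mt-Co3 (11701) and Dppa3 (9865) entered the 10 highest on this scale. mt-Ts1, a tRNA gene, overlaps the end of the more abundant mt-Co1 on the opposite strand by 3 bases, so its level is uncertain. Dppa3, which protects maternal DNA methylation in the zygote, was at 1349 to 12373 CPM with a median of 3120 CPM. Spin1, which ranks higher by CPM and has a longer exon length, had a per-length level of 8706. Exon length is the union over all isoforms, so a gene with long minor isoforms is set too low.

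The members of 15 gene lists were summed per embryo. The subcortical maternal complex (12 genes) had the highest summed level of them, at 7031 to 57848 CPM with a median of 36115 CPM, most of it Zbed3. All 12 of its members had a count in every embryo, against 13% of all genes in the table and 64.2% of the 11097 genes with a mean of at least 5 CPM. Oocyte chromatin and RNA factors (26 genes) followed at a median of 24104 CPM, led by Tcl1 and Dppa3. Zona and oocyte secreted genes (16) had a median of 12377 CPM and cell cycle genes (44) one of 12119 CPM. The cell cycle sum varied least of the 15 on a log2 scale, with a mean of 13.57 ± 0.14 (SD of log2 summed CPM, n = 99), followed by glucose and pyruvate metabolism at 11.90 ± 0.15. The subcortical maternal complex was at 15.03 ± 0.53.

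Within the maternal lists, levels differed by gene. Of the zona and secreted list, Omt2a and Omt2b lay far above Zp3, a sperm receptor of the zona pellucida, which was at 22.8 to 152.3 CPM with a median of 46.95 CPM. Bmp15, an X-linked growth factor secreted by the oocyte, was at 266 to 4808 CPM with a median of 1539 CPM. Among oocyte transcription factors (13 genes, summed median 1534 CPM), Foxo3 had a median of 358 CPM and Sebox 244 CPM, whereas Tbpl2, the TBP homologue of the oocyte, had 11.7 CPM. Wee2, the oocyte kinase that inhibits Cdk1, and Ccnb1, a cyclin of mitosis, led the cell cycle list with medians of 1876 and 1114 CPM.

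Genes of the 2-cell wave were present in all embryos. The 42 genes of the 2-cell activated list summed to 2916 to 8078 CPM with a median of 4953 CPM. Of them, 34 had a count in every embryo, against 13% of all genes and 64.2% of genes with a mean of at least 5 CPM. Zfp352, a zinc finger gene marking this stage, was at 95.3 to 935 CPM with a median of 492 CPM. Usp17lb, a deubiquitinase gene, was at 101.03 to 680 CPM with a median of 277 CPM, and Zscan4d at 79.6 to 1101 CPM with a median of 247 CPM. BC061212 had 0 counts in all embryos. The transcription factor gene Duxf3 had a count in 90 embryos at a mean of 3.50 CPM. Members of the Zscan4, Tdpoz, Usp17l and Pramef families are near-identical copies, and reads that map to several of them were not counted, so the level of each single copy is uncertain and set too low.

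The level of the 2-cell activated list followed that of the oocyte lists weakly. Over 99 embryos, with CPM of nuclear counts on a log2 scale, r was 0.25 (2-sided permutation p = 0.0123, adjusted 0.0164) and rho 0.25 (permutation p = 0.0128, adjusted 0.017). Without the 2 embryos farthest from the median 2-cell level, r was 0.29 (permutation p = 0.00391), and without the 2 farthest from the median oocyte level it was 0.22 (permutation p = 0.0317). With TMM scaling r was 0.42 (permutation p = 1.0e-05, a value that cannot be lower with this number of permutations). Within ranges of 10 embryo numbers r was above 0 in 8 of 10. Both sums are parts of 1 total and are not free of each other. The 6 Zscan4 genes rose with the other genes of the list, with r = 0.30 (permutation p = 0.00227, adjusted 0.00454) and rho = 0.35 (permutation p = 0.0003, adjusted 0.0006). Without the 2 embryos farthest from the median Zscan4 level, r was 0.26 (permutation p = 0.01). The sign held in 8 of 10 ranges.

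**Figure D3:**
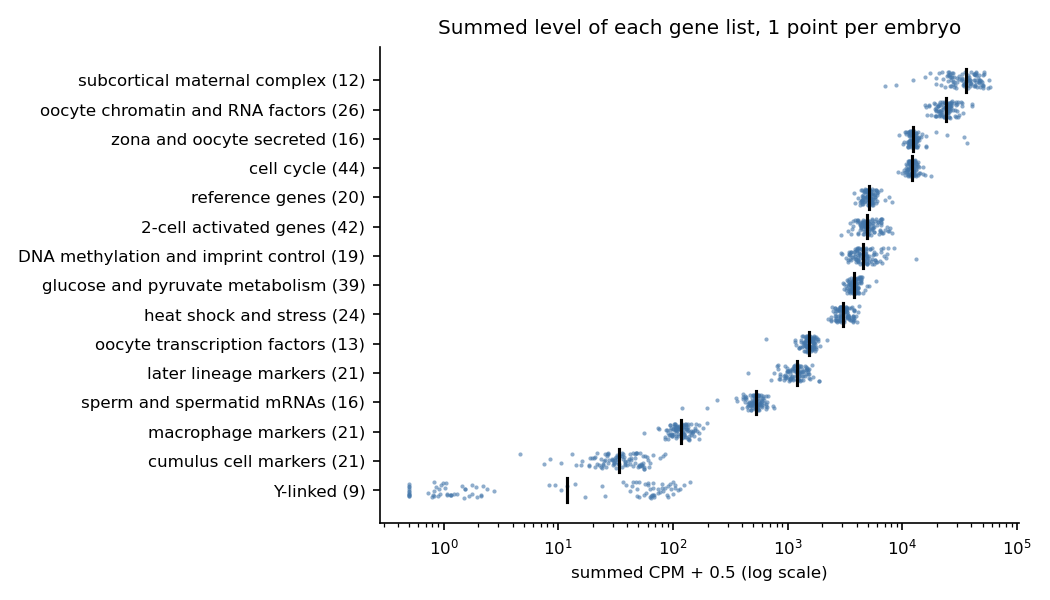
Summed CPM plus 0.5 on a log scale for each of 15 gene lists (number of genes in brackets), with 1 point for each of 99 embryos and a black bar at the median. Maternal lists lie highest, from medians of 12377 to 36115 CPM for 3 of the 4, and the Y-linked list has a separate group of embryos near 0.

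Spread between embryos depends on the mean, so it was compared at a given mean. For the 11097 genes with a mean of at least 5 CPM, the SD of log2(CPM + 1) over embryos was set against the running median of that SD over the genes nearest in mean, and the difference is called the SD excess. At either end of the range of means this median was held constant. Nearest here means nearest in mean log2(CPM + 1), whereas the limit of 5 CPM was set on mean CPM. At the lowest mean log2 levels a gene thus passes the limit only with high values in some embryos. That can raise the running median there, so the excess of genes near the limit is uncertain. The 1110 genes with the largest excess (10% of those measured) are called most variable and the 1110 with the smallest (10%) least variable. The last gene inside the first set, Syap1, had an excess of 0.27 and the next outside, Lmtk2, also 0.27. For the least variable set the edge lay at -0.19, between Clec16a inside and Catsperd outside. These sets are a description and carry no test.

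**Figure D4:**
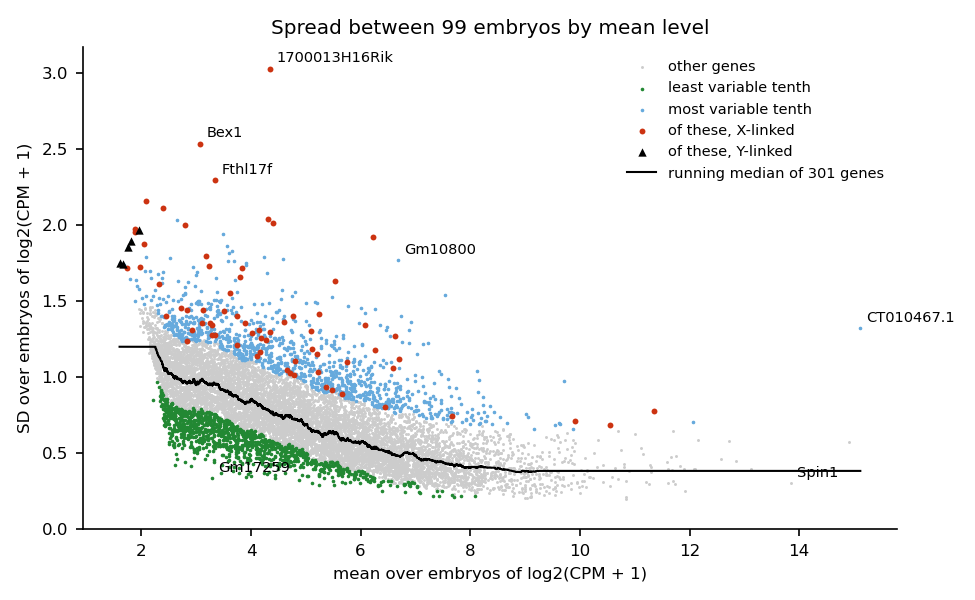
SD over 99 embryos of log2(CPM + 1) against the mean of log2(CPM + 1) for 11097 genes, with the running median as a line, the most variable genes in blue (X-linked in red, Y-linked as black triangles) and the least variable in green. 1700013H16Rik and Bex1 lie farthest above the line, and CT010467.1 stands alone at the highest mean.

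X-linked genes led the ranking by SD excess. Of the 15 largest excesses, 9 were X-linked, against 354 of 11097 among all genes measured. 1700013H16Rik (X, 53742901 to 53757831) had the largest excess, 2.26. It was at 0 to 1025 CPM with a median of 43.9 CPM, and 20 embryos had no count of it. Its highest value was in LFD 73. Bex1 (X, 136213972 to 136215513), a small signalling adaptor, was at 0 to 98.7 CPM with a median of 16.3 CPM and had a count in 66 embryos. Other X-linked genes among the 15 were Fthl17f (ferritin heavy chain-like, median 17.5 CPM, excess 1.34), Tsc22d3 (glucocorticoid-induced, 26.9 CPM, 1.25), Mid1ip1 (a partner of acetyl-CoA carboxylase, 28.97 CPM, 1.24), Tex13b (5.12 CPM, 1.05), Bhlhb9 (10.1 CPM, 1.03) and Gm9 (61.3 CPM, 0.997). Fthl17f and Bex1 have close paralogs nearby, so part of their reads may be uncounted.

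Across the chromosome, 68 of 354 X-linked genes measured (19.2%) were among the most variable, against 10% of all genes measured and 7.02% to 12.99% on single autosomes. Without the 6 embryos low on the first component it was 89 of 355 (25.1%), and with genes of a mean of at least 20 CPM 37 of 210 (17.6%). All 5 Y-linked genes measured (Uty, Usp9y, Zfy1, Eif2s3y and Gm28597) were in the same set.

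The Y-linked level split the embryos. Summed over 9 Y-linked genes it was at most 2.23 CPM in 46 embryos and at least 7.81 CPM in 53, with no embryo between. Uty, a histone demethylase paralog, had a count in 52 of the 53 embryos above the gap and in 5 of the 46 below it. Zfy1, a zinc finger gene, had a count in 52 and 2, Usp9y in 50 and 1, Eif2s3y, a translation factor gene, in 51 and 1, Zfy2 in 45 and 1, Ddx3y in 33 and 1, and Uba1y in 25 and 0. Kdm5d had a count in 51 embryos above the gap and in 35 below it, where it reached at most 1.90 CPM. Sry, the testis-determining gene, had 0 counts in all 99. The labels do not give sex, and no embryo was assigned one.

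X-linked levels were read jointly with the Y-linked sum as counts of embryos, with no test. Bex1 was at 5 CPM or more in 58 embryos, 45 of the 46 below the gap and 13 of the 53 above it. Fthl17f reached that level in 46 below and 18 above, Tex13b in 43 and 7, Bhlhb9 in 42 and 18, Mid1ip1 in 46 and 36, and Gm9 in 46 and 46. Bex1 and Tex13b thus passed this level in few embryos above the gap, whereas Gm9 had reads on both sides. Gm9 reached 174.7 CPM below the gap and 493 CPM above it, the latter in LFD 73, a library that stood apart. Xist (mean 2.90 CPM, range 0 to 19.6 CPM) was below the 5 CPM limit for the spread. It reached 5 CPM in 21 embryos, of which 18 were below the gap and 3 above it, so 28 embryos below the gap had less than 5 CPM of Xist.

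**Figure D5:**
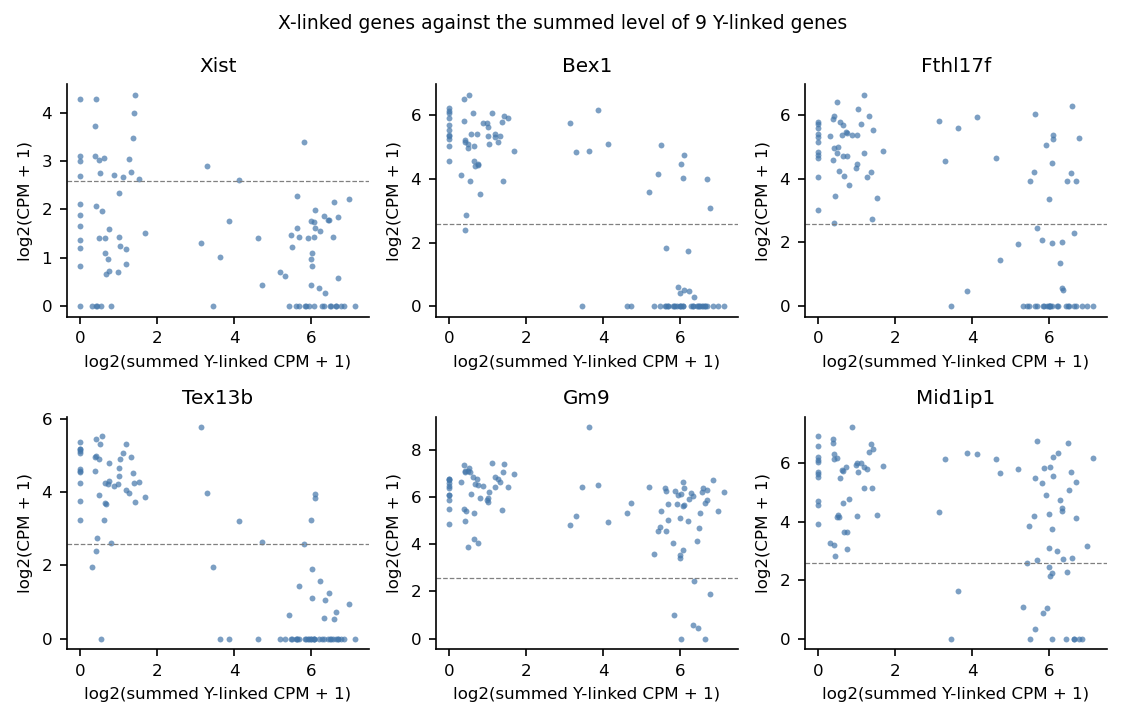
Log2(CPM + 1) of 6 X-linked genes against log2 of the summed CPM of 9 Y-linked genes plus 1, with 1 point for each of 99 embryos and a dashed line at 5 CPM. Bex1 is at 5 CPM or more in 45 of the 46 embryos on the left and in 13 of the 53 on the right; Gm9 passes the line in most embryos on both sides.

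Autosomal genes with a large spread had other patterns. Gm10800 (chromosome 2, 98666547 to 98667301) was at 5.31 to 4391 CPM with a median of 97.6 CPM, and 18.6% of its summed CPM lay in LFD 62 alone. The pseudogene Gm5435 (chromosome 12) was at 0.397 to 1136 CPM with a median of 222.9 CPM. Tacr3 (chromosome 3), the receptor of neurokinin B, was at 0 to 173.6 CPM with a median of 31.5 CPM. The olfactory receptor gene Olfr373 was at 0 to 143.4 CPM with a median of 5.16 CPM, and the testis-expressed gene Tex101 at 0 to 110.7 CPM with a median of 27.8 CPM. The non-coding Gm4316 had an excess of 1.02 at a median of 15.1 CPM. CT010467.1 ranked 19 of 11097 with an excess of 0.94.

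Among genes with a mean of at least 5 CPM, the 5 with the largest share of their CPM in 1 embryo had it in LFD 73 or LFD 26. Olfr624 had 39.4% of its summed CPM in LFD 73, where it was at 385 CPM against a median of 5.38 CPM. Ybx3, a cold-shock domain protein that binds RNA, had 29.6% in LFD 26 (531 CPM, median 10.9 CPM). Gm44183, Gm37110 and Gm38110, of the annotation class TEC (transcripts awaiting experimental support), had 24.5%, 23.1% and 21.2% in LFD 73. A high value in 1 embryo raises the mean and can bring a gene over the 5 CPM limit, so this ranking is not free of that limit. Gm44183 had a mean of 6.54 CPM and a median of 4.39 CPM, and Gm38110 a mean of 5.10 CPM and a median of 3.37 CPM.

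Lists differed in how many members were most variable. The lists were chosen with earlier results of these data known. Their shares, here and below, are thus a description and not an independent comparison with the share of all genes. Of 39 measured genes of the 2-cell activated list, 11 (28.2%) were in that set, against the 10% of all genes, and 0 were least variable. They were Zscan4a, Zscan4c, Zscan4d, Tdpoz2, Tdpoz3, Usp17la, Usp17le, Pramef6, Pramef25, Trim43a and AF067061. Most of them are copies within the Zscan4, Tdpoz, Usp17l and Pramef families, so the 11 are not independent of each other. Pramef6, a PRAME family gene, had the largest excess, 0.43, at 0 to 259 CPM with a median of 97.6 CPM. D5Ertd577e had the smallest, -0.15. Of 22 measured heat shock and stress genes, 5 (22.7%) were most variable. They were the small heat shock gene Hspb1 (excess 0.91, 4.39 to 420 CPM), the AP-1 genes Jun (0.89, 0 to 121.2 CPM), Junb (0.80, 0 to 136.7 CPM) and Fos (0.73, 0 to 70.5 CPM), and the immediate early gene Ier3 (0.43). The most abundant chaperones of the list, Hspa5, Hsp90ab1 and Hsp90aa1, were not among them, and Hspe1 was least variable, with an excess of -0.19, and with exons that overlap the opposite-strand gene Hspd1.

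Markers of later lineages included several of the most variable genes. Their 21 genes summed to 454 to 1882 CPM, and 7 of 14 measured (50%) were most variable, against 10% overall. Klf5, a zinc finger factor of pluripotent and trophectoderm cells, was at 5.67 to 351 CPM with a median of 76.4 CPM and an excess of 0.43. Krt18, a keratin of trophectoderm, was at 0 to 45.02 CPM (0.51), Sox17, an endoderm factor, at 0 to 66.1 CPM (0.50), Fgf4 at 0 to 95.1 CPM (0.45), Utf1 at 0 to 65.1 CPM (0.40), Klf4 at 1.91 to 230 CPM (0.39) and Gata4 at 14.7 to 167.4 CPM (0.27). Klf17, the most abundant of the list at a median of 745 CPM, had an excess of 0.04. Without the 6 embryos low on the first component 9 members were most variable.

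The other lists are given by their counts, to be read against the 10% of all genes measured that were most variable. The oocyte, cell cycle (7.14%), glucose and pyruvate (11.4%) and reference (10%) lists lay near that share. Of the 61 measured genes of the 4 oocyte lists together, 5 (8.20%) were most variable. These were Timd2 (0.63), Taf4b (0.40), a subunit of the TFIID complex, Zfp36l2 (0.38), an RNA-decay factor, Nlrp4f (0.36) and Bmp15 (0.30). Of 42 cell cycle genes 3 were most variable (Ccnb3, Fzr1 and Mcm6), of 35 genes of glucose and pyruvate metabolism 4 (Hk1, Slc16a1, Tpi1 and Mdh2), of 16 genes of DNA methylation and imprint control 0, and of 20 reference genes 2 (Gusb and Polr2a). All 4 measured genes of the Y-linked list were most variable, as were 1 of 3 sperm and spermatid mRNAs (Tssk6), 1 of 8 macrophage markers (C1qb) and 0 of 3 cumulus markers. Hk1, a hexokinase, was at 0 to 104.3 CPM with an excess of 0.62. Among the common reference genes Rplp0 had a median of 1153 CPM and an excess of 0.08, Ubb 869 CPM and 0.20, and Gusb 9.37 CPM and 0.53. No gene of the 84 measured cytosolic ribosomal protein genes was most variable, and 10 (11.9%) were least variable, against 10% of all genes measured in either set.

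The least variable genes had lower levels and shorter exons than all genes measured, and non-coding genes took a larger share of them. Gm17259 (chromosome 13, 81778773 to 81783749), a long non-coding gene, had the smallest excess, -0.62. It was at 4.13 to 22.2 CPM with a median of 8.56 CPM. Gm4202, a pseudogene, was at 1.59 to 11.5 CPM (-0.58), Gm44140 at 2.16 to 14.2 CPM (-0.55), Gm11585 at 2.93 to 17.7 CPM (-0.55) and the coding gene Asphd1 at 1.54 to 11.6 CPM (-0.54). The other 10 of the 15 smallest were 4930586N03Rik, 1700018M17Rik, Gm45822, Gm43966, Esrra, Gm11537, A930028N01Rik, 4930539J05Rik, Snrpert and Fbl-ps2. All 15 had a count in every embryo. By class, 312 of 905 long non-coding genes measured (34.5%) and 34 TEC genes (33.3% of those measured) were least variable, against 10% overall and 657 of 9597 other coding genes (6.85%).

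Many of them overlapped a more abundant gene. Of the 15 smallest excesses, 12 had an exon that overlaps an exon of a more abundant gene on the opposite strand, such as Gm17259 with Cetn3 (112.7 CPM), Asphd1 with Kctd13 (331 CPM) and 4930539J05Rik with Ube2d3 (2420 CPM). Over the least variable set it was 504 of 1110 (45.4%), against 12.4% of all genes measured and 4.86% of the most variable. Smart-seq2 does not mark the strand, while the counting used a strand setting, so reads of a gene and of its opposite-strand partner cannot be told apart, and the levels of these genes are uncertain. The median exon length of the least variable genes was 2523 bases against 4250 over all measured, and their median mean level 12.5 CPM against 28.5 CPM. The median GC content of the longest transcript was 51.9% for the most variable genes, 48.8% for the least variable and 48.8% for all. The part of length, level and GC content in the spread was not tested.

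The same measure was taken in the HFD embryos, which had no part in choosing the sets and were not compared with LFD embryos in level. Of 1103 most variable genes measured in both, 690 (62.6%) were also most variable there, and of 1069 least variable genes 668 (62.5%). All 15 genes of largest excess were among the most variable of the HFD embryos, at ranks 1 to 53, and all 15 of smallest excess among the least variable. Across the 10905 genes measured in both, the SD excess had a Spearman rho of 0.80, over genes, which are not independent replicates. Within LFD embryos, ranges of 10 embryo numbers held a median of 8.78% of the variance of the most variable genes and 10.1% of that of all genes, where values in no order would give 10.2%. For the 15 genes of largest excess the median was 13.5%, with a range of 8.09% to 20.5%. The part of embryo order in their spread, by number or by listing in the series, was not tested.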

How the data were processed

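Smart-seq2 libraries of 99 single LFD embryos were analysed. Per the file headers and the submitters' processing notes, the authors trimmed reads with Trim Galore 0.6.6, checked them with MultiQC 1.11, aligned them with STAR 2.7.10a to GRCm38 with the mitochondrial sequence replaced by that of the ST strain, and counted read pairs per exon and gene name with featureCounts 2.0.3 (strand setting 2, Ensembl 102, reads with several placements left out). The deposited values are raw counts, not normalized, and the deposited exon length was used for per-length levels. Gene symbols were given a type from GENCODE M21 (53292 of 55291) or RefSeq (1090); 909 had none. CPM, detection (1 count or more), SD excess, class sums and exon overlap were computed with Python 3.11.15 libraries (pandas, numpy, pyranges 0.1.4), and TMM factors and dispersions with edgeR 4.0.16 as alternatives. List levels use log2(summed CPM + 0.5). Correlations used 100000 permutations, 2-sided, with Benjamini-Hochberg adjustment over the 4. The members and gene lists were chosen with earlier results of these data known. Genes named are, by rule, the 15 of highest mean CPM, the 10 of highest per-length level, the 15 of largest and 15 of smallest SD excess, the 5 with the largest share in 1 embryo, in each list or class the 2 most abundant and those of largest and smallest excess, Xist, Y-linked genes and markers at 0; the genes of the first principal component, the genes at the edges of the sets and other list members were named after their values were seen. The 20 most alike of 4851 embryo pairs differed by at least 12.9 times the sampling variance (chi-square per degree of freedom), so no library was counted as a duplicate. A few genes that the rule names are not reported here. Left out are the authors' diet contrast and the HFD embryos, except for the repeat of the spread. Alternatives were other normalizations, pseudocounts, minimum levels, measures of spread and sets of embryos.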

Additional observations from a re-analysis of the deposited data

How the results depend on the processing

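The median of 18723 genes detected fell to 15683 with 5 counts required; leaving out the 4 few-gene or the 6 embryos low on the first component gave 18797 in both cases. Of the 15 most abundant genes, 14 were shared without few-gene embryos and 11 on the per-length scale. The share of the 100 most abundant genes was 25.4% without the rRNA gene, which was tried after seeing the data. Of the 1110 most variable genes, 548 were shared with the squared coefficient of variation and 665 with a minimum mean of 20 CPM, where 726 of them were measured and the set itself held 665. Of the least variable, 642 were shared with the squared coefficient of variation, 674 with edgeR's tagwise dispersion, 338 at 20 CPM, where 338 were measured, and 606 without genes that overlap a more abundant opposite-strand gene (also tried after seeing the data), where 606 were measured. Both of the latter counts of least variable genes are thus set by which genes could be measured. Without the 6 embryos low on the first component, 835 of the most variable and 860 of the least variable genes were shared. Without few-gene embryos these counts were 887 and 858. The 15 genes of largest excess remained most variable in every alternative in which they were measured. The correlation of genes detected with the mitochondrial share, -0.05 over 99 embryos, was 0.23 without few-gene embryos, 0.27 without the 2 embryos of most extreme mitochondrial share and 0.15 without the 6 embryos low on the first component; the cause was not tested. The other 3 correlations kept their sign and side of the threshold. The number of 2-cell activated genes among the most variable ran from 7 to 15, of later lineage markers from 3 to 11, of heat shock genes from 4 to 9, of cell cycle genes from 1 to 7, of oocyte chromatin and RNA factors from 1 to 7 and of DNA methylation genes from 0 to 3 over the alternatives. No paired analysis was possible because only 1 group was analysed, and the shared embryo numbers of both diets pair nothing in it. Sire, date and batch are not given in the labels, so their part in the spread between embryos was not tested.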

Other observations

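Genes of homeobox families, a set of transcription factors that pattern the later embryo, were noticed among the variable genes, and the set of symbols was chosen after the values were seen. Of the set, 40 genes had a mean of at least 5 CPM. Among these 40, 17 (42.5%) were most variable, against 10% of all genes measured, and none was least variable. Because the genes were picked after they were seen to vary, this share is a description and not an independent comparison with the 10%. The set is also incomplete. The homeobox gene Sebox, with an excess of -0.07 and not most variable, is outside it. Hoxa10, with a mean of 5.59 CPM and a median of 1.94 CPM, passed the limit only through high values in some embryos. The summed level of the set was 1279 to 3116 CPM with a median of 1918 CPM. Lhx1 was at 0 to 165.4 CPM with a median of 31.7 CPM and an SD excess of 0.84. Msx1 was at 0 to 523 CPM with a median of 112.9 CPM and an excess of 0.77. Dlx2 (0 to 136.2 CPM, excess 0.69) and Dbx1 (0 to 108.8 CPM, excess 0.67) followed. Each of these 4 genes had a count in 95 or more of the 99 embryos, and each was at 0 in at least 1.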
